A study of Schizosaccharomyces pombe with 25 samples.

Results

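The nuclear ribosomal RNA (rRNA) genes of the fission yeast Schizosaccharomyces pombe were described as the reference annotation deposited with a chromatin immunoprecipitation sequencing (ChIP-seq) series gives them. They were taken as all genes marked rRNA on chromosomes I, IIc and III of that annotation, which gave 47 of 7015 annotated genes, and the 2 mitochondrial rRNA genes were left aside. Chromosome IIc is the annotation's version of chromosome II, and the 9 rRNA genes on its right arm stand 850 bases off their positions in RefSeq. The 47 genes comprised 36 genes for 5S rRNA, 5 for 18S, 3 for 5.8S and 3 for 28S rRNA, by the product names that RefSeq gives to the same systematic identifiers. All 47 identifiers were found there, each with the same length and strand.

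The series holds 25 samples in 13 groups, made to follow CENP-A (Cnp1), the histone variant H2A.Z (Pht1) and the chromatin proteins Swr1 and Msc1. CENP-A was precipitated with anti-Cnp1 from 1 sample each of pht1∆, swr1∆ and msc1∆ cells and 2 of wild type, and from 1 sample each of pht1∆, swr1∆, msc1∆ and otherwise wild-type cells labelled cc2∆:cc1. Myc-tagged H2A.Z was precipitated from 4 samples each of swr1∆, msc1∆ and wild-type cells, Myc-tagged Swr1 from 2 wild-type samples and Flag-tagged Msc1 from 2 wild-type samples. The files used here hold no value of any sample, so no enrichment, depth or difference between genotypes was analysed here. Every number below is a count or a position in the deposited annotation or in RefSeq assembly ASM294v3, none of which has replicate error, and no test was run.

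Ribosomal RNAs form the core of the ribosome and reach it by separate routes. RNA polymerase I copies 18S, 5.8S and 28S rRNA as 1 long precursor from tandem repeats known as the rDNA, whereas RNA polymerase III copies 5S rRNA from short genes of its own, with the factors TFIIIA, TFIIIC and TFIIIB. In budding yeast the 5S genes lie inside the rDNA repeat, and in fission yeast they are scattered over the chromosomes. RNA polymerase III genes of fission yeast usually have a TATA element upstream, and the polymerase stops at a run of T residues.

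The 5S genes shared 1 sequence of 119 bases, to which the other observations on them refer. As annotated, 6 of the 36 genes had this sequence and nothing else, and it was found without a difference inside 23 of the 36. It is shown as it stands in SPRRNA.17, chrI:3830380-3830498 on the forward strand of RefSeq assembly ASM294v3, beside the near copies with the most substitutions, SPRRNA.12 (chrI:912230-912348) and SPRRNA.37 (chrII:4161619-4161737), and the most diverged copies, SPRRNA.54 (chrII:3096968-3097076) and SPRRNA.41 (chrII:3171572-3171680), all 4 on the reverse strand. Capitals mark bases that differ from the common sequence. Bases missing from a copy are not marked.
SPRRNA.17: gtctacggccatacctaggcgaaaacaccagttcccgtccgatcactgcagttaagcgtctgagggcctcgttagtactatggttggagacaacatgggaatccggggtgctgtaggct
SPRRNA.12: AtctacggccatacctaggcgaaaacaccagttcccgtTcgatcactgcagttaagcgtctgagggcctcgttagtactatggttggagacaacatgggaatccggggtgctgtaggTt
SPRRNA.37: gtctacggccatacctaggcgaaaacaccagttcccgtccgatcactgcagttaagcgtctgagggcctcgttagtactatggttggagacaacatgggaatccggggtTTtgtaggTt
SPRRNA.54: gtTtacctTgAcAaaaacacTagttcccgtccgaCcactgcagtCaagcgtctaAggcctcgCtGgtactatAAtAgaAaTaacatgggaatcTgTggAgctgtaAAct
SPRRNA.41: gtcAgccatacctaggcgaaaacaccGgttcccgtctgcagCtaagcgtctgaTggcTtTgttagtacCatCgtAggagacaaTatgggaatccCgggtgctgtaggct

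A further 11 genes held a near copy with 1 to 3 substitutions and no gap. Among them 7 genes had 1 substitution, 2 had 2 and 2 had 3. Positions are counted from 1 at the 5′ end of the 119-base sequence, with the common base first and the base of the copy last. SPRRNA.04, SPRRNA.05 and SPRRNA.11 carried C20T, and SPRRNA.11 also carried C118T. SPRRNA.12 carried G1A, C39T and C118T, and SPRRNA.37 carried G110T, C111T and C118T. SPRRNA.30 and SPRRNA.40 shared T12C as their sole difference. The single substitutions of the other genes were C68T in SPRRNA.53, T119C in SPRRNA.18 and C40T in SPRRNA.35, and SPRRNA.15 carried C15G and A74G. Of these 17 substitutions 15 were transitions, changes within the purines or within the pyrimidines. Among the near copies, 3 of the 12 distinct ones, C20T, C118T and T12C, recurred in more than 1 gene. C68T was also found in the diverged copy SPRRNA.41, and A74G in the diverged copy SPRRNA.54. From base 41 to base 109 there were 2 of the 17, C68T and A74G, a stretch set after the positions had been seen. The 11 near copies fell into 9 forms, so that the 36 genes had 12 forms in all.

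SPRRNA.54 and SPRRNA.41 stood apart from the other 34. SPRRNA.54 kept 89 of the 119 bases (74.8%), with 20 substitutions and 10 bases missing. SPRRNA.41 kept 98 of the 119 (82.4%), with 11 substitutions and 10 bases missing, and its match began 35 bases before the annotated gene. The lowest near copies, SPRRNA.12 and SPRRNA.37, kept 116 bases (97.5%). SPRRNA.54 and SPRRNA.41 are next to each other in the order of 5S genes, 74.5 kb apart on the right arm of IIc and both on the reverse strand. They had 0 substitutions in common, and bases that both lack were not counted. Aligned to each other, they differed at 25 aligned bases, with 7 inserted and 7 missing bases besides. Whether either is transcribed was not analysed here.

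**Figure D1:**
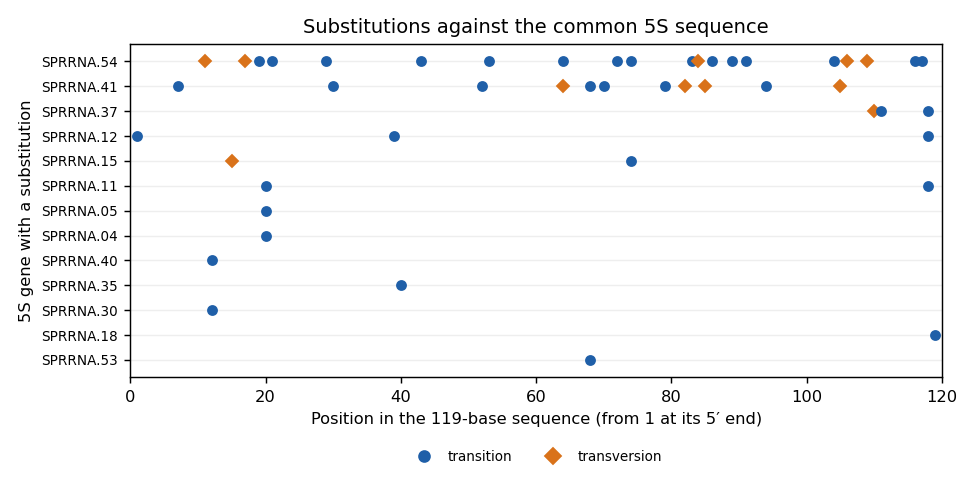
Substitutions in the 13 5S genes that differ from the common sequence, by position in its 119 bases (x axis, from the 5′ end), with 1 row per gene. Circles are transitions and diamonds transversions. The 11 near copies have 1 to 3 marks each, mostly in the outer parts, and SPRRNA.54 and SPRRNA.41 have 20 and 11 marks along the whole length.

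The annotated genes varied far more in length than the sequence they hold. Annotated 5S genes ran from 80 bases (SPRRNA.41) to 440 bases (SPRRNA.32), with a median of 150 bases. The annotation began at the first base of the common sequence in 9 genes, before it in 24 and after it in 3. It began 200 bases early in SPRRNA.32, 50 early in SPRRNA.03 and SPRRNA.04, and 4 bases late in SPRRNA.53 and SPRRNA.55. It ended at the last base in 12 genes and after it in 24, by up to 121 bases in SPRRNA.31 and SPRRNA.32. Length therefore separated the kinds of rRNA incompletely. Below 200 bases there were 33 genes, of which 30 were 5S and 3 were 5.8S. Of the 14 genes of 200 bases or more, 8 were 18S or 28S and 6 were 5S, namely SPRRNA.04 (209 bases), SPRRNA.37 (220), SPRRNA.03 (229), SPRRNA.29 (241), SPRRNA.31 (246) and SPRRNA.32. The genes closest to the boundary were SPRRNA.07 with 198 bases below it and SPRRNA.04 above it. These 6 held the 119 bases with 0 to 3 substitutions. The text therefore goes by product, and values for the class below 200 bases are given where they differ.

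**Figure D2:**
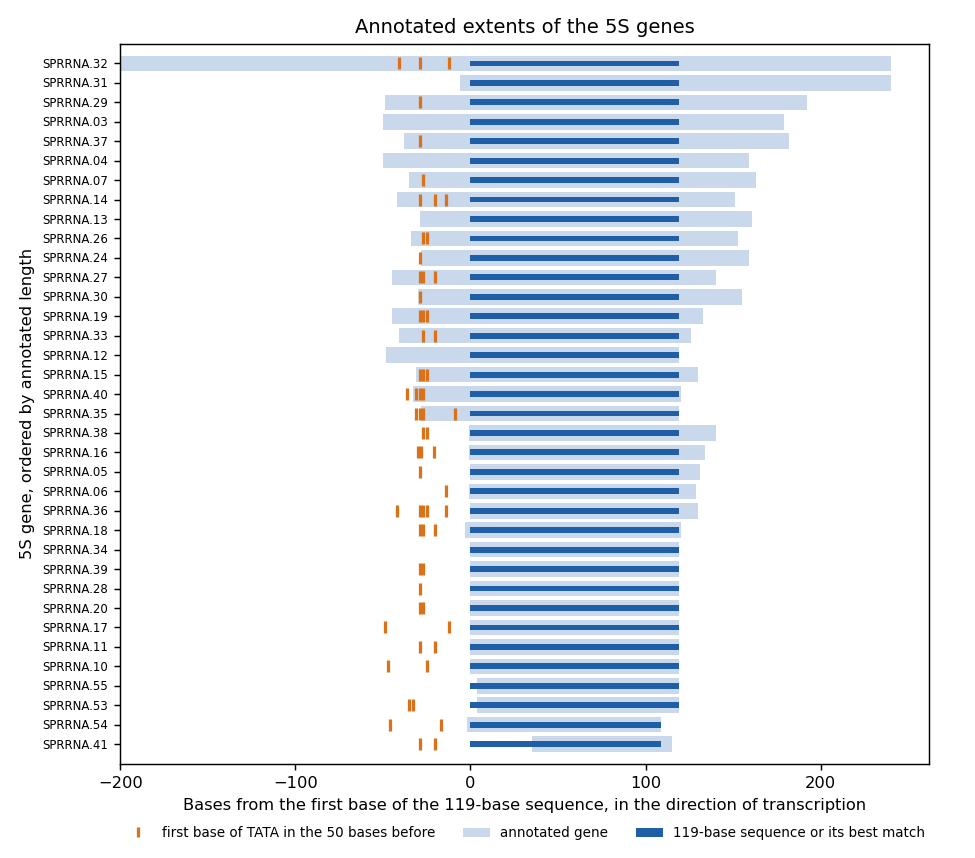
Annotated extent of each of the 36 5S genes (pale bars, 1 per gene, ordered by annotated length) around the 119-base sequence or its best match (dark bars), in bases from its first base (x axis). Vertical ticks mark the first base of each TATA in the 50 bases before it. The dark bars are alike while the pale bars run from 80 to 440 bases, and most ticks stand 25 to 31 bases before the common sequence, often inside the annotated gene.

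Upstream of the common sequence most 5S genes had a TATA, in many of them at a similar distance. The letters TATA, searched on the strand of the gene with overlapping matches allowed, were present in the 50 bases before the common sequence in 29 of 36 genes (80.6%). The share was 77.8% before tRNA genes, which RNA polymerase III also copies, and 33.8% before protein-coding transcripts, 12.4% of which are annotated to begin at their start codon. Within the narrower stretch where most copies had it, a TATA with its first base 25 to 31 bases before the gene, the counts were 25 of 36 5S genes (69.4%), 55 of 171 tRNA genes (32.2%) and 564 of 5155 protein-coding transcripts (10.9%). That stretch was set from the 5S genes themselves, and the annotated start of a tRNA gene is that of the finished tRNA. The most frequent first bases were 29 bases before, in 19 genes, and 27 before, in 13. No TATA was found in this window of SPRRNA.12, SPRRNA.13, SPRRNA.31, SPRRNA.34, SPRRNA.55, SPRRNA.03 and SPRRNA.04, which says only that these letters are not there.

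The windows of 50 bases are shown for genes with a TATA at the usual spacing (SPRRNA.20, SPRRNA.28, SPRRNA.39, SPRRNA.26, SPRRNA.32). They are also shown for SPRRNA.17, whose TATAs lie elsewhere. In SPRRNA.26 and SPRRNA.32 the TATAs lie inside the annotated gene. TATA is in capitals, and the first base of the common sequence follows directly.
SPRRNA.20: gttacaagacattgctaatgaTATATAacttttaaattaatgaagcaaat
SPRRNA.28: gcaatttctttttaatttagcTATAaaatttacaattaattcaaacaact
SPRRNA.39: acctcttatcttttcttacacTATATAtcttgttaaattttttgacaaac
SPRRNA.26: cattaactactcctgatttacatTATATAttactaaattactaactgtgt
SPRRNA.32: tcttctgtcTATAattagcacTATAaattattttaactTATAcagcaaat
SPRRNA.17: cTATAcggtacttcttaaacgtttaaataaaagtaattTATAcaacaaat
These stand on ASM294v3 at chrI:4240969-4241018 (reverse strand), chrII:464477-464526, chrII:2032360-2032409, chrIII:926092-926141, chrII:1406535-1406584 and chrI:3830330-3830379. Across the 36 genes, the letter 24 bases before the common sequence was A in 35, and those 27 and 26 before were T and A in 33 each.

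A run of at least 4 T followed the common sequence closely. TTTT occurred in the 20 bases after it in 31 of 36 genes (86.1%), against 93.6% for tRNA genes and 25.0% for protein-coding transcripts. The run began 1 to 10 bases after the common sequence, with a median of 4, and was 4 to 9 bases long. The letters TTTT were absent from this window of SPRRNA.32, SPRRNA.54, SPRRNA.37, SPRRNA.38 and SPRRNA.07. With 40 bases searched, 35 of the 36 genes had them. The 20 bases after SPRRNA.17, SPRRNA.28 and SPRRNA.26, with TTTT in capitals, and those after SPRRNA.54, which has none, were as follows.
SPRRNA.17: tccTTTTattcaTTTTTTTT
SPRRNA.28: tccaTTTTTTTattcgtgaa
SPRRNA.26: ccttcTTTTTTatttactat
SPRRNA.54: ttctttcatagaaatatcgt
They are chrI:3830499-3830518, chrII:464646-464665, chrIII:926261-926280 and chrII:3096948-3096967 (reverse strand) of ASM294v3. Measured from the annotated gene ends instead, the counts were lower, 16 of the 36 genes for TATA and 18 for TTTT. The annotation of 24 genes runs past the common sequence at its start, and that of 24 at its end.

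The 5S genes were scattered over all 3 chromosomes. There were 12 on I, 16 on IIc and 8 on III, or 2.15, 3.53 and 3.26 per Mb of sequence. Chromosome I, with 44.4% of the nuclear sequence, thus held 33.3% of the 5S genes, and IIc, with 36.1%, held 44.4%. By arm, density was lowest on the left arm of I (8 genes, 2.13 per Mb) and highest on the left arm of IIc (7 genes, 4.38 per Mb). The forward strand carried 21 and the reverse strand 15. All 7 genes on the left arm of IIc were on the forward strand.

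Most 5S genes pointed to the centromere. A centromeric interval was taken on each chromosome as the longest stretch between adjacent protein-coding genes, and it measured 39182 bases on I, 50558 on IIc and 78172 on III. Of the 36 5S genes, 27 (75.0%) were transcribed toward that interval, with 9 of 12 on I, 13 of 16 on IIc and 5 of 8 on III. Among tRNA genes outside the intervals 55 of 116 (47.4%) pointed that way, and among protein-coding genes 2556 of 5123 (49.9%). This comparison was chosen after the strands had been seen. In the class below 200 bases the share was 63.6%, since the 3 5.8S genes all point away and 6 5S genes that point to the interval are left out.

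**Figure D3:**
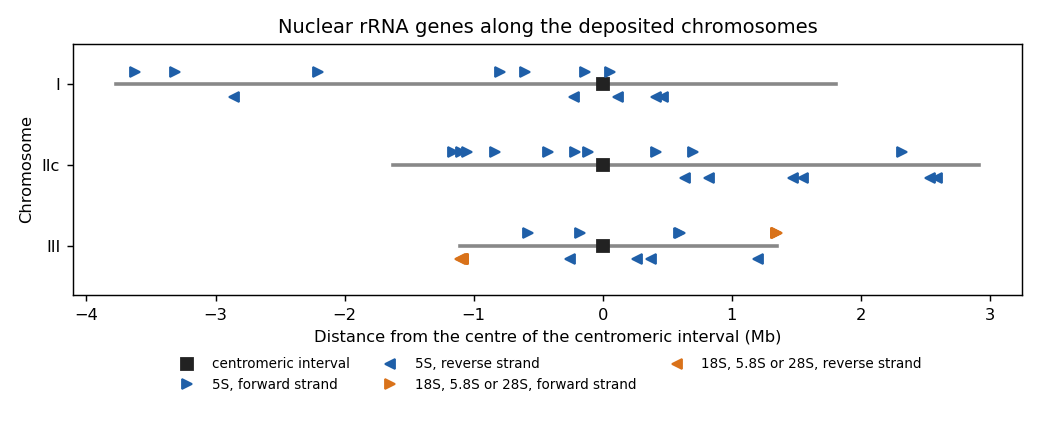
Positions of the 47 nuclear rRNA genes on chromosomes I, IIc and III (rows), as distance in Mb from the centre of the centromeric interval (squares, x axis). Right-pointing marks above a line are on the forward strand and left-pointing marks below it on the reverse strand, with 5S genes and the other rRNA genes in different colours. The 5S genes lie on every arm, though only in the inner part of the right arm of I, and 27 of 36 point to the square. The other 11 genes crowd at the ends of III and point outward.

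The centromeric intervals held no rRNA gene (0 of 47), although 55 of the 171 tRNA genes lay in them. The nearest 5S genes were SPRRNA.17 on I, 39.5 kb from the interval, SPRRNA.33 on IIc, 92.2 kb away, and SPRRNA.26 on III, 138 kb away. At the other extreme, SPRRNA.07 was 145 kb and SPRRNA.10 150 kb from a chromosome end, and SPRRNA.38 was the nearest to an end on IIc, at 329 kb. The median distance of the 36 genes from the nearest end was 1141 kb. Neighbouring 5S genes were a median of 214 kb apart over 33 neighbouring pairs. The closest were SPRRNA.05 and SPRRNA.06 on III, 11.0 kb apart, then SPRRNA.37 and SPRRNA.38 and SPRRNA.29 and SPRRNA.30, both 48.6 kb apart on IIc. The longest stretch without a 5S gene was 1413 kb, between SPRRNA.53 and SPRRNA.13 on I. On the right arm of I all 4 5S genes lay within 450 kb of the interval. The outermost of them, SPRRNA.20, was 1338 kb from the chromosome end. No 5S gene lay beside another as in a tandem array.

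Some 5S genes had a tRNA gene close by, and the neighbours mostly ran in the same direction. A tRNA gene stood within 1 kb of 10 of the 36 5S genes (27.8%), against 3.88% of protein-coding genes, and 36.8% of tRNA genes had another tRNA gene as near. The share for tRNA genes includes the 55 in the centromeric intervals. By chromosome the 10 5S genes were 1 of 12 on I, 6 of 16 on IIc and 3 of 8 on III. In 9 of the 10 pairs both genes were on the same strand, and in 6 of those 9 the tRNA gene came first. Among the 26 5S genes farther away, 16 were on the strand of their nearest tRNA gene. The 10 tRNA genes carried 7 amino acids.

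SPRRNA.06 on III was the closest, 150 bases downstream of SPCTRNAASN.06, a gene for asparagine tRNA. It was followed by SPRRNA.39, 176 bases downstream of SPBTRNAASN.02, and SPRRNA.26, 183 bases downstream of SPCTRNAARG.09 (arginine). SPRRNA.28 was 217 bases downstream of SPBTRNAHIS.01 (histidine), SPRRNA.33 was 307 bases downstream of SPBTRNATHR.06 (threonine) and SPRRNA.14 was 533 bases downstream of SPATRNATHR.04. In 3 pairs the 5S gene came first, with SPRRNA.38 233 bases before SPBTRNAASN.04, SPRRNA.36 519 bases before SPBTRNAASP.04 (aspartate) and SPRRNA.30 850 bases before SPBTRNAGLY.06 (glycine). SPRRNA.04 was the exception in strand, lying back to back with SPCTRNALYS.12 (lysine), 606 bases apart. Of the 10 partners 3 were asparagine tRNA genes and 2 threonine tRNA genes. The shares of these kinds among all tRNA genes were not counted. SPRRNA.05 fell just outside the limit, 1056 bases from SPCTRNAMET.07.

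Other 5S genes were remote from any tRNA gene. SPRRNA.10 was farthest, 215 kb away, followed by SPRRNA.07 at 169 kb, SPRRNA.18 at 114 kb and SPRRNA.54 at 112 kb. The median was 17.0 kb for the 36 5S genes (24.2 kb for the class below 200 bases), 12.6 kb between tRNA genes and 35.5 kb for protein-coding genes. Within 50 kb of a tRNA gene lay 75.0% of 5S genes, 76.6% of tRNA genes and 62.3% of protein-coding genes.

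**Figure D4:**
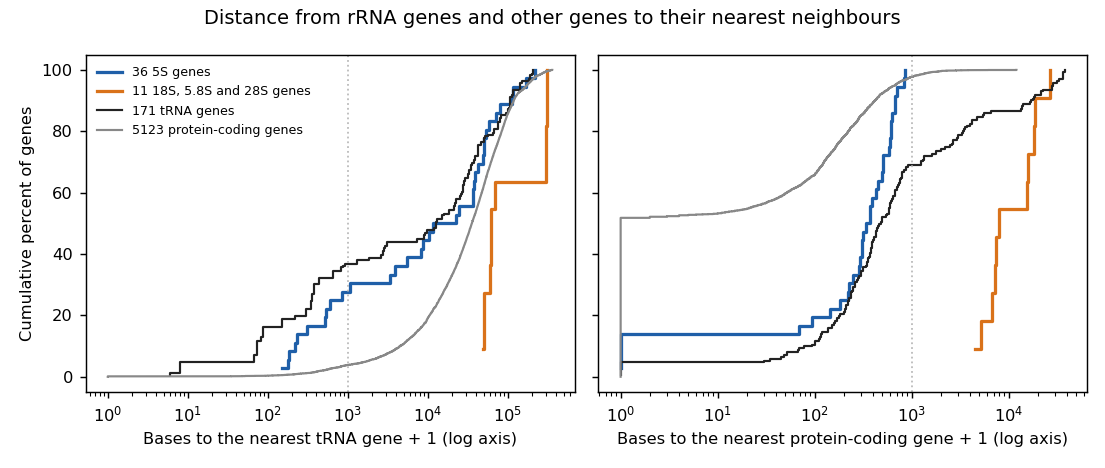
Cumulative percent of genes (y axis) by distance to the nearest other tRNA gene (left) and the nearest other protein-coding gene (right), in bases plus 1 on a log x axis, for the 36 5S genes, the 11 other rRNA genes, 171 tRNA genes and 5123 protein-coding genes. The dotted line marks 1 kb. The 5S curve stands at 27.8% there on the left, between tRNA genes at 36.8% and protein-coding genes at 3.88%, and all 36 5S genes lie left of the line on the right.

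All 36 5S genes had a protein-coding gene within 1 kb, as did 69.0% of tRNA genes and 97.8% of protein-coding genes, counted against other protein-coding genes. The median distance was 354 bases for 5S genes, 484 bases for tRNA genes and 0 bases for protein-coding genes, many of which overlap one another. The tRNA values here and in the next paragraph include the 55 tRNA genes in the centromeric intervals, which were chosen as stretches without a protein-coding gene. Among 5S genes the largest distance was 847 bases, from SPRRNA.14 to tif211, which encodes a subunit of the initiation factor eIF2. For the 11 other rRNA genes the range was 4463 to 26907 bases. Outside overlaps, 31 5S genes lay in gaps between coding genes of 668 to 3937 bases (median 1665). Of these gaps 20 (64.5%) lay between genes on the same strand, 9 (29.0%) between divergent and 2 (6.45%) between convergent genes. Among all 2426 gaps longer than 200 bases the shares were 54.7%, 35.0% and 10.3%. These gaps were not matched in length to those that hold a 5S gene, the shortest of which was 668 bases. The 5S gene was on the strand of its nearest coding gene in 13 of 31 cases.

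The remaining 5 5S genes (13.9%) overlapped protein-coding genes, in every case within the 5′ untranslated region and with 0 coding bases touched. Among tRNA genes 8 of 171 (4.68%) overlapped a protein-coding gene, 7 of them within the 5′ untranslated region alone, and 51.4% of protein-coding genes overlapped another. SPRRNA.10 lay whole inside the 5′ untranslated regions of SPAC5H10.02c and SPAC5H10.03, which overlap each other on opposite strands. SPRRNA.13 lay whole in that of mfc1, which encodes a copper transporter of the forespore membrane, and SPRRNA.15 in that of SPAC1B1.04c. SPRRNA.35 shared 141 of its 147 bases with SPBC24C6.03 and SPRRNA.07 154 of its 198 with SPCC965.11c. In all 5 cases a coding gene on the same strand was among those overlapped. In the deposited annotation no 5S gene overlapped a tRNA gene, and 1, SPRRNA.29, overlapped a non-coding RNA gene, SPNCRNA.1366. In RefSeq, 23 of the 36 5S genes had an overlapping RNA feature on the opposite strand. The share of tRNA or protein-coding genes with such a feature was not counted, so this count has no comparison.

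One of the genes the study deleted borders a gap that holds a 5S gene. SPRRNA.33 lies in the gap between pht1 and shy1, with SPBTRNATHR.06 between it and pht1. SPRRNA.33 is 863 bases from pht1, the H2A.Z gene deleted in the pht1∆ strains, and is transcribed in the opposite direction. It is nearer to shy1, at 672 bases. The other genes the study deleted were farther from a 5S gene, msc1 94.7 kb from SPRRNA.53 and swr1 1036 kb from SPRRNA.20, and cnp1, the CENP-A gene, was 367 kb from SPRRNA.41. Among the listed genes for the machinery that makes rRNA, the nearest was sfc6, a subunit of TFIIIC. SPRRNA.34 lay in the 893-base gap between dbp7 and sfc6, 435 bases from sfc6. A long terminal repeat listed by RefSeq lay within 1 kb of 2 5S genes, SPRRNA.53 at 223 bases and SPRRNA.37 at 295 bases. That is 5.56% of 5S genes, with 4.09% of tRNA genes and 6.94% of protein-coding transcripts as near.

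The distances of these machinery genes to the nearest 5S gene varied widely, with a median of 166 kb, against 118 kb for all protein-coding genes. Of 35 listed genes 34 were found by symbol (not rpf2), 12 on I, 16 on IIc and 6 on III. The 6 TFIIIC genes lay from 0.435 kb (sfc6) to 857 kb (sfc7) from the nearest 5S gene, and sfc2, which encodes TFIIIA, was 429 kb from SPRRNA.20. Among the TFIIIB genes brf1 was 38.3 kb, bdp1 68.8 kb and tbp1 175 kb away. The 8 RNA polymerase III subunit genes ranged from 49.8 kb (rpc1) to 702 kb (rpc2), and the 6 RNA polymerase I genes from 20.5 kb (rpa2) to 258 kb (rpa34). The RNA polymerase I factor genes ranged from 35.4 kb (rrn11) to 888 kb (rrn5). The ribosomal protein genes rpl501 and rpl502, whose protein L5 binds 5S rRNA, were 136 kb and 193 kb away, rpl1101 and rpl1102 181 kb and 71.0 kb, and rrs1, an assembly factor of the 5S particle, 35.5 kb.

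The 11 genes for 18S, 5.8S and 28S rRNA lay at the ends of chromosome III, within 21.3 kb of an end. In living cells these arrays are far longer than the reference shows. At the left end 7 genes stood on the reverse strand, and at the right end 4 on the forward strand, so both arrays are transcribed toward the end of the sequence. On the left, from the inside outward, SPRRNA.44 (18S, III:21289-23130), SPRRNA.51 (5.8S, III:20712-20876) and SPRRNA.48 (28S, III:16927-20411) formed 1 unit. SPRRNA.43 (18S, III:10419-12260), SPRRNA.50 (5.8S, III:9842-10006) and SPRRNA.47 (28S, III:6057-9541) formed the next. On the right SPRRNA.46 (18S, III:2440994-2442835), SPRRNA.52 (5.8S, III:2443248-2443412) and SPRRNA.49 (28S, III:2443713-2447197) formed the only whole unit. An incomplete 18S gene closed each end, SPRRNA.42 with the first 1390 of 1842 bases (75.5%) and SPRRNA.45 with the first 1001 (54.3%). A whole unit ran 6204 bases from the first base of 18S to the last of 28S.

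Spacing was the same in every unit, with 412 bases between 18S and 5.8S and 300 bases between 5.8S and 28S. The left repeats had a period of 10870 bases. Between a 28S gene and the next 18S gene lay 4666 bases at the left end, in both repeats without a difference, and 4685 bases at the right end, where 12 substitutions and 31 gapped bases separated the aligned right and left spacers. The nearest coding genes were SPCP20C8.01c, 5167 bases from SPRRNA.44, and SPCC569.01c, 4463 bases from SPRRNA.46, and the nearest tRNA genes were 48.3 kb and 302 kb away.

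**Figure D5:**
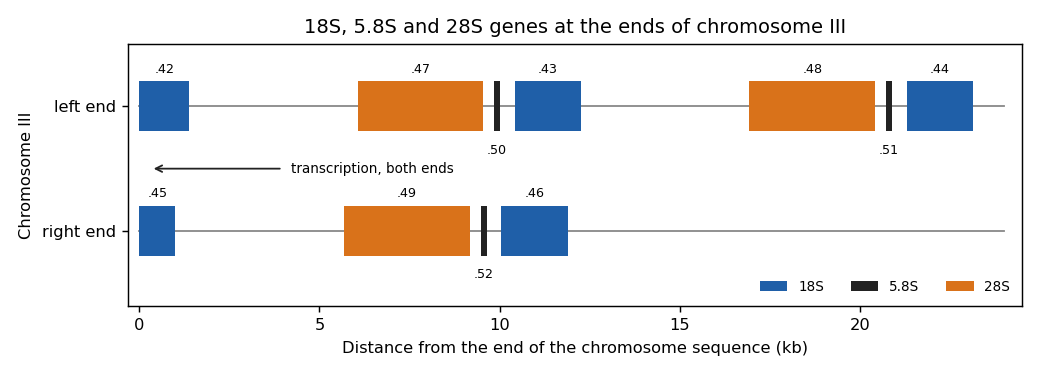
The 11 genes for 18S, 5.8S and 28S rRNA by distance from the left and the right end of the chromosome III sequence (rows) in kb (x axis), with gene numbers beside the bars. Both ends begin with an incomplete 18S gene and continue inward with whole units, 2 on the left and 1 on the right, and transcription runs toward the end on both.

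The copies of each rDNA gene were identical. The 3 28S genes of 3485 bases and the 3 5.8S genes of 165 bases had 0 differences among themselves, as had the 3 whole 18S genes. The incomplete SPRRNA.45 matched its part of 18S at every base, and SPRRNA.42 at all but 1 undetermined base. The 5.8S sequence, shown because it alone falls in the length range of the 5S genes, is that of SPRRNA.50, chrIII:9842-10006 on the reverse strand of ASM294v3.
SPRRNA.50: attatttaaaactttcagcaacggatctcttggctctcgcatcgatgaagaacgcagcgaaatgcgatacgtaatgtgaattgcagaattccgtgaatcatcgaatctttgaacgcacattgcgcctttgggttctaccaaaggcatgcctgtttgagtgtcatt

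Identical copies set how well a short read could be placed on these genes. A position was called unique when the 50 bases starting there, within the gene, occurred once on both strands of the nuclear chromosomes. In 18S, 5.8S and 28S genes 0 of the 50-base words were unique. In the annotated 5S genes 38.3% were, but within the common sequence itself the share was 12.8%, from 8 of the 36 genes. Over all 47 genes 7.09% of positions were unique, against 22.2% in tRNA genes and 98.2% in protein-coding transcripts. Words that touch the common sequence but may reach into its flanks were unique at 21.4% (SPRRNA.03) to 100% (SPRRNA.54 and SPRRNA.41) of positions, with a median of 49.7%. The sources used here do not say how the authors treated reads with several matches.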

How the data were processed

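The authors deposited a gene annotation, a list of sequence lengths and a list of sequence names for the whole series, per the file headers and contents. The annotation gives first and last bases of features, counted from 1, and the length list gives bases per sequence. Per the submitters' processing notes the build was ASM294v2 and the tools included BWA, Bowtie2 and deepTools 2.5.3, and the settings are not given there. No value of a sample was used, so counting error and depth do not apply.

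Sequences and product names came from RefSeq assembly ASM294v3, matched by identifier. Of the 47 genes 38 had equal coordinates there, and 9 on chromosome II were shifted by 850 bases. So IIc positions are those deposited and chrII positions those of ASM294v3. The 9 are the 5S genes on the right arm of IIc, and the 7 on its left arm were not shifted. The centromeric interval of IIc lies between these sets, and its length is that of the deposited version. The name of the deposited annotation carries cc2_D, and how IIc differs from II was not analysed further. Distances are bases between gene edges. The common sequence was placed with Biopython 1.88 in each gene and 250 bases on either side (match 2, mismatch -3, gap opening -6, extension -1). Neighbour, placement and unique-word steps were tested on simulated data. Genes were named for their class, extreme position, overlap or sequence. The members and lists were chosen with earlier results of these data known.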

Additional observations from a re-analysis of the deposited data

How the results depend on the processing

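Counts and medians were given a margin of 1.5 times the main value, and percentages their 95% Wilson interval. The values outside the margin are given here. The interval treats genes, or overlapping 50-base words, as independent draws, so it serves as a margin only and measures no error. No paired analysis was possible because no value of a sample was used. The class below 200 bases had 33 genes, 18 with a boundary at 150 bases, 38 at 300 bases, and 36 by product. Its genes per chromosome, 12, 12 and 9 on I, IIc and III, were 2.15, 2.64 and 3.67 per Mb, and its median distance to a chromosome end, 1200 kb, was 30.1% of chromosome length; these are other units and cannot be set against the counts and kb. Leaving out IIc raised the share on I to 57.1%, against 36.4%, and leaving out I raised the share on IIc to 57.1%, against 36.4%, by construction. Counting tRNA genes on the same strand alone, the median distance was 37.5 kb, against 24.2 kb. The median distance to a coding gene was 709 bases to the coding span and 843 bases on the same strand, against 391 bases to the transcript, and 0 genes overlapped a coding span, against 5 for transcripts. Distinct sequences numbered 26 in the 33 genes and 31 in the 36 by product, both as annotated, and 12 in the same 36 within the common sequence. TATA was found before 18 of 33 and 16 of 36 annotated starts and before 29 of 36 common sequences. TTTT followed 17 of 33 and 18 of 36 annotated ends and 31 of 36 common sequences. Unique positions made up 7.09% with 50-base words, 6.73% with 36-base words and 38.3% in 5S genes alone. The alternatives by product and from the common sequence were chosen after seeing the data. Annotated gene ends, which vary more than the sequences, limit every distance given.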

Other observations

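A search of the nuclear chromosomes for stretches that share a word of 20 bases with an rRNA gene but are not annotated as rRNA found 0 for 5S, 18S and 5.8S, and 1 for 28S. It lies at chrIII:814809-814940 of ASM294v3 on the forward strand, in the gap between SPCC1393.08 and SPCC1393.09c, far from the rDNA. Its 132 bases correspond to bases 1285 to 1416 of 28S, counted from the 5′ end of the gene, with 1 substitution, C1310A, shown as a capital.
28S-like stretch: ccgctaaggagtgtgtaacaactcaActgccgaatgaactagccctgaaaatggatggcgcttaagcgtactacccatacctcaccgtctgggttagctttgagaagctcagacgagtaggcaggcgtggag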
